A study of Homo sapiens with 6 samples.

Results

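The genes described here belong to the bone morphogenetic protein (BMP) pathway and were a fixed list of 10: the ligands BMP4 and BMP5, the feedback inhibitors BAMBI, SMAD6 and SMAD7, and the targets ID1, ID2, ID3, GATA3 and TBX3. Of these, 7 had an array row with a gene name and were measured among 14884 named genes in all. ID1, ID2 and ID3 had no named row in the platform annotation used here, so their levels were not analysed. Where a gene has several rows the brightest is taken, but each of the 7 genes had only 1, so brightness decided nothing for them. The 10 genes were chosen by their known roles and by earlier results of these data, which held the differences in log2 level between the 3 groups. Their differences are therefore a description of these arrays, and nothing is read from the number of them that passed a test.

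The cells were H9, an established line of human embryonic stem cells, compared after transduction with 1 of 3 lentiviral vectors, with 2 arrays for each vector. The histone variant H2A.X is phosphorylated near its end where DNA breaks, and that form is called γH2A.X. The gamma_ON clones carried pHIV-EF1α-H2A.XS139E-IRES-eGFP, in which the substitution S139E puts glutamate where the phosphorylated serine stands. The gamma_OFF clones carried pHIV-EF1α-H2A.XT136S139AA-IRES-eGFP, with T136A and S139A, which place alanine at positions that then accept no phosphate. The CTRL clones carried pHIV-EF1α-IRES-eGFP, with no added H2A.X. In all groups the EF1α promoter drove the vector, cells positive for GFP and a pluripotency surface antigen were sorted, and colonies grown from single cells were expanded on mouse embryonic fibroblasts in conditioned medium with 8 ng/ml bFGF. The labels do not say whether the 2 arrays of a vector came from separate clones or cultures, and p-values here cover only the spread among the arrays, part or all of which may be technical. Unsubstituted H2A.X was added in none of the groups, so against CTRL the substitutions and the extra H2A.X cannot be told apart. Both gamma_ON and gamma_OFF carried extra H2A.X, but its amount was not analysed, and their vectors differ at T136 as well as S139. If the 2 arrays of a vector came from 1 clone, clone and vector cannot be told apart.

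BMP ligands bind paired type I and type II receptor kinases, which phosphorylate the SMAD proteins encoded by SMAD1, SMAD5 and SMAD9. These join SMAD4 in the nucleus and switch on targets such as the ID genes, whose products block basic helix-loop-helix factors. Targets also include inhibitors of the pathway itself, so that BAMBI, SMAD6 and SMAD7 commonly rise with the signal they restrain. In human pluripotent cells BMP4 is widely used to drive mesoderm, amnion-like and trophoblast-like fates, in which GATA3 and TBX3 are expressed.

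The upstream windows of the feedback inhibitors are shown because these genes are direct SMAD targets in many cell types. All 3 were lower on the gamma_OFF arrays, as given below, but so were BMP5, GATA3 and TBX3. A part of SMAD binding in these levels was not tested. Each line holds the 250 bases that end just before the gene start in RefSeq (GRCh38.p14), read 5′ to 3′ on the gene's strand. Capitals mark the SMAD palindrome GTCTAGAC or the GC-rich SMAD element GGCGCC, each searched on both strands. The windows are chr15:66701986-66702235 on the plus strand for SMAD6, chr18:48950966-48951215 on the minus strand for SMAD7 and chr10:28677271-28677520 on the plus strand for BAMBI.
SMAD6: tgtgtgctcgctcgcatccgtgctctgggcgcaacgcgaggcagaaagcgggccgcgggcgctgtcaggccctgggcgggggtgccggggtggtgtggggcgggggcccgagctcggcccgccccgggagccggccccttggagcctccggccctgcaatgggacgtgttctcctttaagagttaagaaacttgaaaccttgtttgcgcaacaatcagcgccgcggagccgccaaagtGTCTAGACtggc
SMAD7: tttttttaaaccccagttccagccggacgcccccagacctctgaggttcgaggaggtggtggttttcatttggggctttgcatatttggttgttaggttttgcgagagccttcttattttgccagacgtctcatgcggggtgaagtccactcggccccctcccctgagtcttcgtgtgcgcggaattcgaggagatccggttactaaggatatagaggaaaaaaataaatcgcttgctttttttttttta
BAMBI: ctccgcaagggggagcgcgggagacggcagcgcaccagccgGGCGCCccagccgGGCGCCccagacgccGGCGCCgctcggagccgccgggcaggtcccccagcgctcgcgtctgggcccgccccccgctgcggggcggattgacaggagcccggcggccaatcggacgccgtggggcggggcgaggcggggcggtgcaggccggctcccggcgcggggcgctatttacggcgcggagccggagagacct
The SMAD6 window held 1 copy of GTCTAGAC, whose first base lay 12 bases before the gene start. That palindrome was present in 18 of 10749 windows of named genes, or 0.167%. At least 1 copy of GGCGCC was present in 22.4% of windows. The BAMBI window held 3 copies of it and had a GC content of 81.2%. The SMAD7 window held neither motif. The short SMAD box GTCT, which the palindrome contains on each strand, was present at least once in 76.5% of windows, with a median of 1 match. It had 4 matches for SMAD7, 4 for BAMBI and 2 for SMAD6. Of the other measured genes, BMP4 and GATA3 had 1 copy of GGCGCC each and BMP5 had none, and TBX3 had no window in the table. A match describes the letters and is not evidence of binding.

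Over the named genes, Pearson's r between arrays was 0.9936 for the gamma_ON pair, 0.9862 for the gamma_OFF pair and 0.9943 for the CTRL pair, with genes not being independent replicates. Between arrays of different groups r ran from 0.9686 to 0.9881. The first gamma_OFF array was thus closer to gamma_ON replicate 2 (0.9873) than to gamma_OFF replicate 2. The gamma_OFF arrays had the narrowest signal range, with SDs over genes of 1.70 and 1.64, against 1.76 to 1.81 for the other arrays. H2AX, the gene the vectors add, had 0 named rows, so the transgene itself was not analysed here.

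For BMP5, BAMBI, SMAD6, SMAD7, GATA3 and TBX3, every gamma_OFF array lay below every gamma_ON and CTRL array. For BMP4, BMP5, BAMBI and TBX3, every gamma_ON array lay above every gamma_OFF and CTRL array. The share of all genes with either pattern over the 3 groups was not counted. Shares for each pair of groups are given below. BMP4 was the gene of the 7 whose gamma_OFF and CTRL arrays overlapped. Levels are deposited log2 values, and tests are from a limma fit over all 14884 genes, with Benjamini-Hochberg adjusted p-values and a threshold of 0.05. Against CTRL, 6 of the 7 genes fell in gamma_OFF and 0 rose, where 6.08% of all genes fell and 2.77% rose. In gamma_ON 1 of 7 rose and 0 fell, where 0.739% of all genes rose and 0.806% fell. Between the vectors, all 7 were higher in gamma_ON than in gamma_OFF, as were 3.98% of all genes, while 0 were lower, as were 2.02%. The median log2 difference of the 7 was 0.40 for gamma_ON against CTRL, -0.76 for gamma_OFF against CTRL and 1.10 for gamma_ON against gamma_OFF, beside medians of 0.02, 0.01 and 0.02 over all genes. These comparisons share arrays, and the last is the difference of the others. In bulk RNA, fewer cells expressing a gene and less RNA per cell cannot be told apart.

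**Figure D1:**
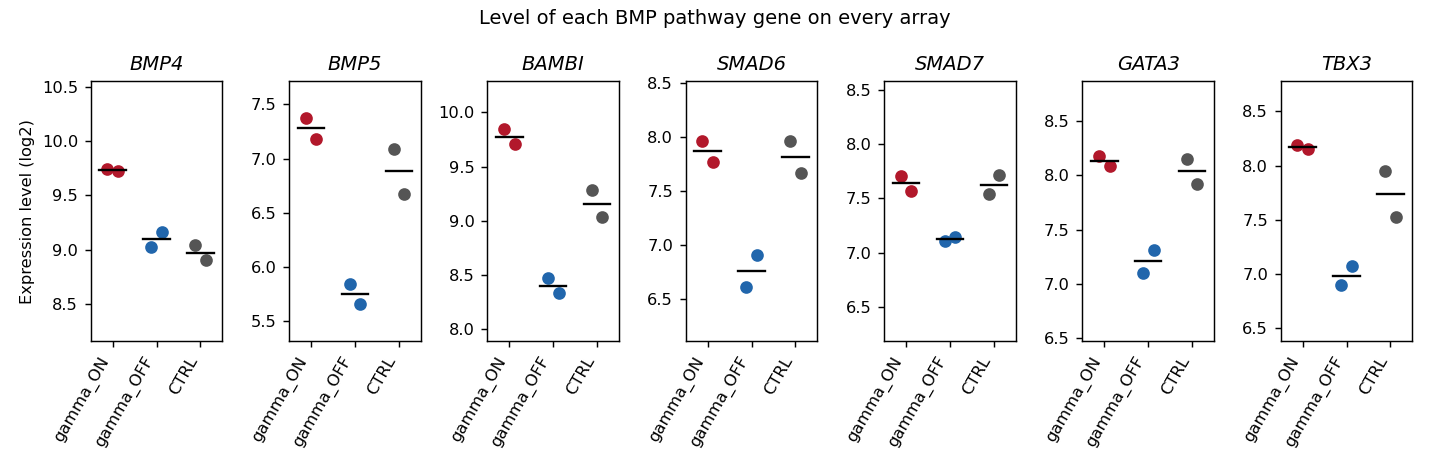
Expression level (log2) of the 7 measured BMP pathway genes on each array, with gamma_ON, gamma_OFF and CTRL from left to right; points are arrays, bars are means of 2 arrays, and each panel spans the same number of log2 units. BMP4 is highest in gamma_ON (9.75 and 9.72) and its other groups overlap, whereas the gamma_OFF points lie lowest for the other 6 genes.

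BMP4, a ligand that patterns mesoderm and extraembryonic tissue, had log2 levels of 9.75 and 9.72 on the gamma_ON arrays, 9.02 and 9.16 on the gamma_OFF arrays, and 9.04 and 8.90 on the CTRL arrays. The gamma_ON arrays lay above the other 4, and gamma_OFF and CTRL overlapped. BMP4 rose 1.70-fold in gamma_ON over CTRL, a log2 difference of 0.76 (SE 0.12, adjusted p = 0.0193), and it was 1.56-fold higher in gamma_ON than in gamma_OFF (log2 0.64, adjusted p = 0.0274). In gamma_OFF its mean was 9.09 ± 0.10, against 8.97 ± 0.10 in CTRL (SD, n = 2 each), a log2 difference of 0.12 with a 95% confidence interval of -0.15 to 0.39 (limma adjusted p = 0.507). With 1 array of the comparison left out the rise over CTRL kept its size, at log2 differences of 0.69 to 0.83, but missed the threshold. Its adjusted p became 0.164 without gamma_ON replicate 1, 0.134 without gamma_ON replicate 2, 0.0803 without CTRL replicate 1 and 0.205 without CTRL replicate 2, in fits that called 0.228% to 0.611% of all genes. The difference between the vectors missed at an adjusted p of 0.234 without gamma_ON replicate 1, 0.103 without gamma_ON replicate 2, 0.0556 without gamma_OFF replicate 2 and 0.053 without either CTRL array. It was 0.0692, with a log2 difference of 0.47, once arrays were scaled to the same SD.

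BMP5, a ligand of the BMP5, BMP6 and BMP7 subgroup, had the widest differences of the 7 in gamma_OFF against CTRL and between the vectors, though not in gamma_ON against CTRL. Its log2 levels were 7.38 and 7.18 in gamma_ON, 5.84 and 5.66 in gamma_OFF, and 7.09 and 6.68 in CTRL. The gamma_OFF arrays lay more than the spread of any pair below the rest, and no groups overlapped. BMP5 fell in gamma_OFF by 1.13 on the log2 scale against CTRL (SE 0.16, adjusted p = 0.00783), which is 2.19-fold lower, and it was 2.89-fold higher in gamma_ON than in gamma_OFF (log2 1.53, adjusted p = 0.00238). Both differences stayed past the threshold whichever array was left out, with adjusted p-values up to 0.0497 and 0.0453. In gamma_ON its mean was 7.28 ± 0.14, against 6.88 ± 0.29 in CTRL (SD, n = 2 each), a log2 difference of 0.40 that did not pass (limma adjusted p = 0.286, 95% confidence interval 0.04 to 0.76 before adjustment). That difference was 0.60 without CTRL replicate 1 and 0.19 without CTRL replicate 2.

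BAMBI encodes a membrane pseudoreceptor that resembles a type I receptor but lacks the kinase domain. On the log2 scale it stood at 9.85 and 9.71 in gamma_ON, 8.47 and 8.33 in gamma_OFF, and 9.28 and 9.04 in CTRL. The 3 groups did not overlap, with gamma_ON highest, CTRL between and gamma_OFF lowest. It was 2.60-fold higher in gamma_ON than in gamma_OFF (log2 1.38, SE 0.13, adjusted p = 0.0014), and this difference passed whichever array was left out, with an adjusted p of at most 0.0361. Against CTRL, BAMBI fell in gamma_OFF by 0.76 on the log2 scale (adjusted p = 0.0144). Its adjusted p was 0.0576 once gamma_OFF replicate 2 was left out, and 0.108 and 0.0534 once CTRL replicate 1 or 2 was. In gamma_ON the log2 difference from CTRL was 0.62 and narrowly missed the threshold (adjusted p = 0.0611). With 1 array left out this log2 difference ran from 0.49 to 0.74. It passed in 6 of 13 alternatives, among them a fit that left out dim genes (adjusted p = 0.0293). In the other 7 it missed, among them arrays scaled to the same SD (adjusted p = 0.0809).

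SMAD6 encodes an inhibitory SMAD that acts chiefly on BMP receptors. Its log2 levels were 7.96 and 7.76 in gamma_ON, 6.61 and 6.91 in gamma_OFF, and 7.96 and 7.67 in CTRL. The gamma_ON and CTRL values interleaved, and both gamma_OFF arrays lay below all of them. SMAD6 fell 2.08-fold in gamma_OFF against CTRL (log2 -1.05, SE 0.16, adjusted p = 0.00851), and it was 2.15-fold higher in gamma_ON than in gamma_OFF (log2 1.10, adjusted p = 0.00986). The first missed the threshold at 0.0643 without CTRL replicate 1, and the second at 0.136 without gamma_ON replicate 1 and 0.0608 without gamma_ON replicate 2. Between gamma_ON and CTRL the log2 difference was 0.05, with a 95% confidence interval of -0.30 to 0.40, so this design does not exclude a modest difference in either direction.

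SMAD7 encodes the other inhibitory SMAD, which restrains both BMP and TGF-beta receptors, and it had the smallest shift of the 3 inhibitors. Its log2 levels were 7.71 and 7.57 in gamma_ON, 7.11 and 7.14 in gamma_OFF, and 7.54 and 7.71 in CTRL. As for SMAD6, gamma_ON and CTRL overlapped and gamma_OFF lay below both. SMAD7 fell by 0.50 on the log2 scale in gamma_OFF against CTRL (SE 0.12, adjusted p = 0.0402), and it was 0.52 higher in gamma_ON than in gamma_OFF (adjusted p = 0.0461). Both calls sat near the threshold, and each passed in 4 of 13 alternatives. The fall had adjusted p-values of 0.122 and 0.245 without CTRL replicate 1 and 2, 0.0704 with a gamma_ON array left out, 0.0885 without gamma_OFF replicate 2 and 0.0509 with arrays scaled to the same SD. The difference between vectors had 0.302 and 0.108 without gamma_ON replicate 1 and 2, 0.0809 without either CTRL array, 0.113 without gamma_OFF replicate 2 and 0.0602 after that scaling. In gamma_ON against CTRL the log2 difference was 0.01 (95% confidence interval -0.26 to 0.29).

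GATA3, a zinc finger transcription factor of trophectoderm, amnion and other lineages, had log2 levels of 8.18 and 8.08 in gamma_ON, 7.10 and 7.31 in gamma_OFF, and 8.15 and 7.92 in CTRL. The gamma_ON and CTRL arrays overlapped, and the gamma_OFF arrays were the lowest. GATA3 fell 1.78-fold in gamma_OFF against CTRL (log2 -0.83, SE 0.13, adjusted p = 0.0114), and was 1.90-fold higher in gamma_ON than in gamma_OFF (log2 0.93, adjusted p = 0.011). The fall missed it when CTRL replicate 1 was left out (adjusted p = 0.0882). The difference between vectors had 0.139 without gamma_ON replicate 1 and 0.0662 without gamma_ON replicate 2. Against CTRL the gamma_ON log2 difference was 0.10 (95% confidence interval -0.21 to 0.40, adjusted p = 0.812).

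TBX3 encodes a T-box repressor expressed in heart, limb and extraembryonic tissue. Its log2 levels were 8.19 and 8.15 in gamma_ON, 6.90 and 7.07 in gamma_OFF, and 7.95 and 7.52 in CTRL. No groups overlapped, and the CTRL arrays differed by 0.43, the widest gap within any pair for the 7 genes. TBX3 fell 1.68-fold in gamma_OFF against CTRL (log2 -0.75, SE 0.15, adjusted p = 0.0252), and it was 2.28-fold higher in gamma_ON than in gamma_OFF (log2 1.19, adjusted p = 0.00671). With either gamma_ON array left out the fall missed at an adjusted p of 0.053, with gamma_OFF replicate 2 left out at 0.0607, and with CTRL replicate 1 left out at 0.149. Between vectors it was 0.0919 without gamma_ON replicate 1 and 0.0621 without gamma_ON replicate 2. In gamma_ON against CTRL the log2 difference of 0.44 did not pass (adjusted p = 0.222), and it was 0.22 without CTRL replicate 2.

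**Figure D2:**
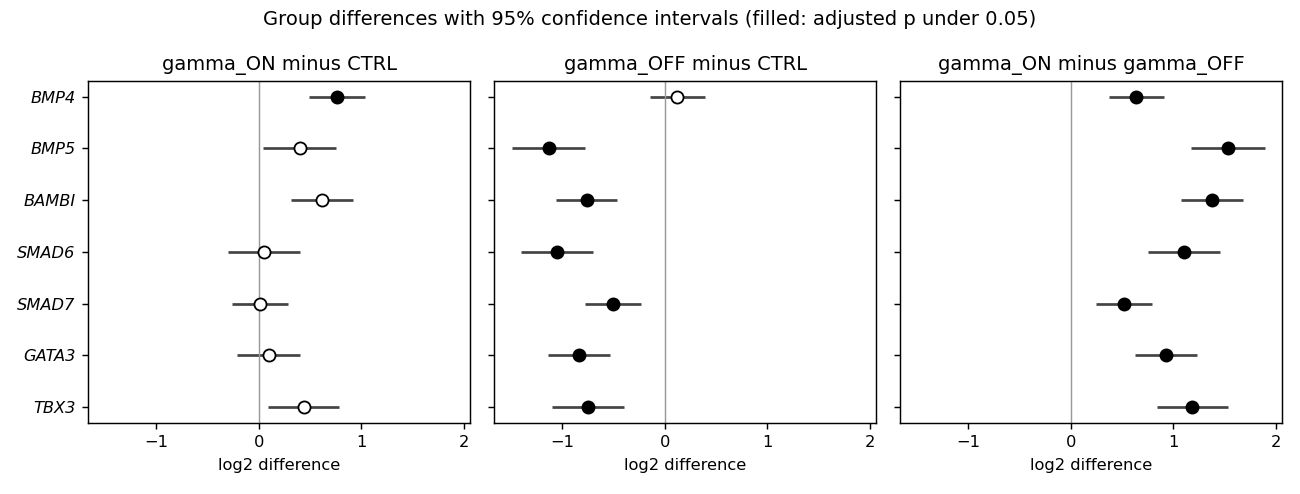
Log2 differences of the 7 genes for gamma_ON minus CTRL, gamma_OFF minus CTRL and gamma_ON minus gamma_OFF; points are differences of group means over 2 arrays each, lines are unadjusted 95% confidence intervals from limma, and filled points have an adjusted p under 0.05. In the first panel BMP4 alone is filled (0.76), in the second all but BMP4 are filled, and in the third all 7 lie between 0.52 and 1.53.

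For BMP5, BAMBI and TBX3 the order of the 3 groups was gamma_ON, CTRL, gamma_OFF with no overlap between neighbours. The step between gamma_ON and CTRL passed for none of them, and the share of all genes in this order was not counted. For SMAD6, SMAD7 and GATA3 gamma_ON and CTRL could not be ordered beyond their spread, and gamma_OFF was lowest. For BMP4 gamma_ON was highest and gamma_OFF and CTRL could not be ordered. Counted by overlap alone, 6 of 7 genes had gamma_OFF wholly below CTRL and 0 wholly above, beside 30.2% and 31.1% of all genes, or 61.3% in either direction. In gamma_ON, 4 lay wholly above CTRL and 0 wholly below, beside 30.0% and 22.3%, or 52.4% in either direction. All 7 had gamma_ON wholly above gamma_OFF, beside 35.8% of all genes above and 27.6% below, or 63.3% in either direction.

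Leaving out gamma_OFF replicate 2, the array with the narrowest range, left 3 of the 7 genes called in gamma_OFF against CTRL (BMP5, SMAD6 and GATA3) and 5 between the vectors. Without that array 2.61% and 1.01% of all genes were called, in place of 8.85% and 5.99%. Leaving out CTRL replicate 1 left BMP5 alone as called in gamma_OFF against CTRL, in a fit that called 1.27% of all genes. Between the vectors, 2 genes, BMP5 and BAMBI, were called without gamma_ON replicate 1, and the same 2 without gamma_ON replicate 2, where 0.329% and 0.45% of all genes were called. Calls were thus lost over all genes in these fits, and the counts say nothing particular about the BMP genes. No called difference changed sign when an array was left out.

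**Figure D3:**
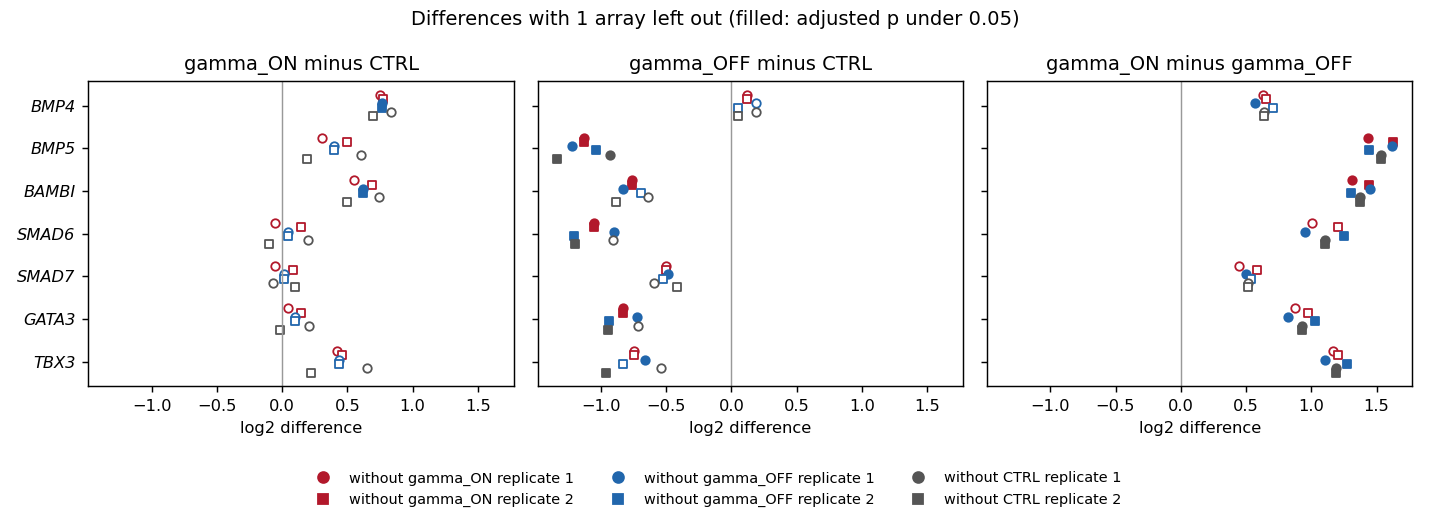
Log2 differences of the 7 genes refitted with 1 array left out, in the same 3 comparisons; colour gives the group and shape the replicate that was left out, and filled symbols have an adjusted p under 0.05. In gamma_OFF minus CTRL the 6 genes below 0 stay there in each fit, from -1.34 to -0.42, while symbols for SMAD6, SMAD7 and GATA3 fall on either side of 0 in gamma_ON minus CTRL.

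For the 4 genes whose group means spanned at least 1 log2 unit, the 3 genes nearest in profile were found by Euclidean distance over the 6 arrays, after each gene's own mean was subtracted. For BMP5 these were KITLG, the ligand gene of the receptor KIT (distance 0.17 log2 units), MT2A, a metallothionein gene (0.25), and HAS2, a hyaluronan synthase gene (0.26). KITLG had log2 levels of 8.18 and 7.83 in gamma_ON, 6.54 and 6.49 in gamma_OFF, and 7.90 and 7.49 in CTRL. Its gamma_OFF arrays were lowest, and its gamma_ON and CTRL arrays overlapped, which those of BMP5 did not. For BAMBI they were MTTP (0.19), which encodes a lipid transfer protein for lipoprotein assembly, the methyltransferase gene SMYD2 (0.21) and the zinc finger gene KLF8 (0.22). For SMAD6 they were ZNF737 (0.19), EFNB2 (0.23), which encodes ephrin-B2, and GATA3 (0.26). TBX3 lay nearest SLIT2 (0.16), which encodes a guidance ligand, the noncoding RNA gene LINC00261 (0.23) and KLF8 (0.24). With 6 arrays and 14884 genes close profiles are common, so a short distance describes these arrays only.

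Beyond these genes, 55 of 73 further BMP pathway genes had a named row. The list was made from textbook roles, with earlier results known. In gamma_ON against CTRL 1 of the 55 rose and 0 fell, or 1.82%, beside 1.55% of all genes. In gamma_OFF 1 rose and 6 fell, or 12.7%, beside 8.85% of all genes. Between the vectors 5 were higher and 1 was lower in gamma_ON, or 10.9%, beside 5.99%. No test of these shares against all genes was made. The medians of the 55 were 0.04, -0.03 and 0.08 in the same order. Leaving out dim genes gave 8 calls in gamma_OFF against CTRL and 9 between the vectors. Those fits called 15.9% and 17% of the genes kept. With arrays scaled to the same SD the gamma_OFF count became 2 higher and 2 lower, and without CTRL replicate 1 it was 0, in fits that called 5.98% and 1.27% of all genes.

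Among the other ligands, 12 of 12 were measured, and BMP2, the closest relative of BMP4, was lowest in gamma_OFF. BMP2 had log2 levels of 8.24 and 8.19 in gamma_ON, 7.48 and 7.52 in gamma_OFF, and 8.45 and 8.08 in CTRL. It fell in gamma_OFF by 0.76 against CTRL (adjusted p = 0.0185) and was 0.71 higher in gamma_ON than in gamma_OFF (adjusted p = 0.034). The fall missed at 0.123 without CTRL replicate 1 and at 0.0601 without gamma_OFF replicate 2. The second difference had 0.248 and 0.106 without gamma_ON replicate 1 and 2, 0.0995 without gamma_OFF replicate 2 and 0.0529 after scaling. BMP8B rose in gamma_OFF by 0.57 against CTRL (adjusted p = 0.0379), and had adjusted p-values of 0.0715 to 0.187 without any array but gamma_OFF replicate 1. BMP6, at -0.46 in gamma_OFF against CTRL (adjusted p = 0.0821), and BMP15, at -0.42 in gamma_ON against gamma_OFF (adjusted p = 0.0807), did not pass.

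Of 11 receptors and co-receptors 3 were measured, and 0 were called by limma in any comparison. At an unadjusted p under 0.05 there were 2 in gamma_OFF against CTRL and 1 between the vectors. Over all genes 4519 and 4910 of 14884 reached that unadjusted threshold in the same comparisons. ACVRL1, a type I receptor gene of endothelium, stood at 0.34 in gamma_OFF against CTRL (adjusted p = 0.138), and HJV, a co-receptor gene, at 0.32 (adjusted p = 0.101). The main BMP receptor genes BMPR1A, BMPR1B and BMPR2 had no named row here.

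Of 18 secreted antagonists and modulators 13 were measured. FST encodes follistatin, which binds activins and some BMPs, and had log2 levels of 9.24 and 9.16 in gamma_ON, 8.32 and 8.04 in gamma_OFF, and 8.83 and 8.61 in CTRL. It was 1.02 higher in gamma_ON than in gamma_OFF (adjusted p = 0.00843, and 0.116 and 0.0627 without gamma_ON replicate 1 and 2). CRIM1, which encodes a membrane protein that binds BMPs, fell in gamma_OFF by 0.85 against CTRL (adjusted p = 0.0109), with adjusted p-values of 0.0743 and 0.0785 without CTRL replicate 1 and 2. FST and FSTL1, at -0.54 and -0.52 in gamma_OFF against CTRL, also passed there (adjusted p = 0.0458 and 0.0407), but neither did so without any array other than gamma_OFF replicate 1 (0.0763 to 0.229 over both genes). FSTL1, which encodes a follistatin-like secreted protein, stood equally low in gamma_ON against CTRL, at -0.52, where it did not pass (adjusted p = 0.0865) but did in 6 of 13 alternatives. CHRDL1, a chordin-like antagonist gene, was lower by 0.56 in gamma_ON than in gamma_OFF (adjusted p = 0.0434, and 0.0807 to 0.167 without any array but gamma_OFF replicate 1). BMPER and SOSTDC1, at 0.51 and 0.42 in gamma_ON against gamma_OFF, did not pass (adjusted p = 0.0518 and 0.0776). The antagonist genes NOG and CHRD stood at -0.19 and 0.16 in gamma_OFF against CTRL and did not pass.

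Of 13 SMADs and intracellular regulators 10 were measured. All 10 had a positive log2 difference in gamma_ON against gamma_OFF, with a median of 0.32, and 1 passed. Of all genes 7870 of 14884 were positive there, and the median over all genes was 0.10 once dim genes were left out. This was SMAD5, a signal-transducing SMAD gene, with log2 levels of 8.39 and 8.31 in gamma_ON, 7.89 and 7.80 in gamma_OFF, and 8.47 and 8.28 in CTRL. It was 0.51 higher in gamma_ON than in gamma_OFF (adjusted p = 0.0477) and fell in gamma_OFF by 0.53 against CTRL (adjusted p = 0.0345). Neither passed without any array other than gamma_OFF replicate 1, with adjusted p-values of 0.0816 to 0.296 and of 0.0665 to 0.199, or after scaling (0.0759 and 0.0544). SMAD9 and SMAD1, at 0.41 and 0.38 in gamma_ON against gamma_OFF, did not pass (adjusted p = 0.109 and 0.197), and SMAD4, the shared partner, stood at 0.08.

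Of 16 other targets 14 were measured. HAND1, a basic helix-loop-helix gene of heart and extraembryonic mesoderm, was highest in gamma_ON, with log2 levels of 8.66 and 8.95 in gamma_ON, 7.53 and 7.77 in gamma_OFF, and 7.31 and 7.13 in CTRL. Its 3 groups did not overlap. It rose by 1.59 in gamma_ON against CTRL (adjusted p = 0.0012) and was 1.16 higher in gamma_ON than in gamma_OFF (adjusted p = 0.00617, and 0.0621 without gamma_ON replicate 2). HEY1, a Notch and BMP target, was 0.71 higher in gamma_ON than in gamma_OFF (adjusted p = 0.0236, and 0.239, 0.076 and 0.0505 without gamma_ON replicate 1, gamma_ON replicate 2 and gamma_OFF replicate 2). RUNX2, an osteoblast regulator, fell in gamma_OFF by 0.59 against CTRL (adjusted p = 0.0438), and had 0.0706 to 0.237 without any array but gamma_OFF replicate 1. DLX5, at 0.55 in gamma_ON against gamma_OFF (adjusted p = 0.0991), and MSX1, at 0.37 in gamma_ON against CTRL (adjusted p = 0.3), did not pass. The genes TCF3, TCF4 and TCF12 encode the E proteins that ID proteins bind, and 0 of 3 were called by limma in any comparison. Their log2 differences ran from -0.23 to 0.15, and 0 had an unadjusted p under 0.05. Over all genes 2203, 4519 and 4910 of 14884 did in the 3 comparisons.

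**Figure D4:**
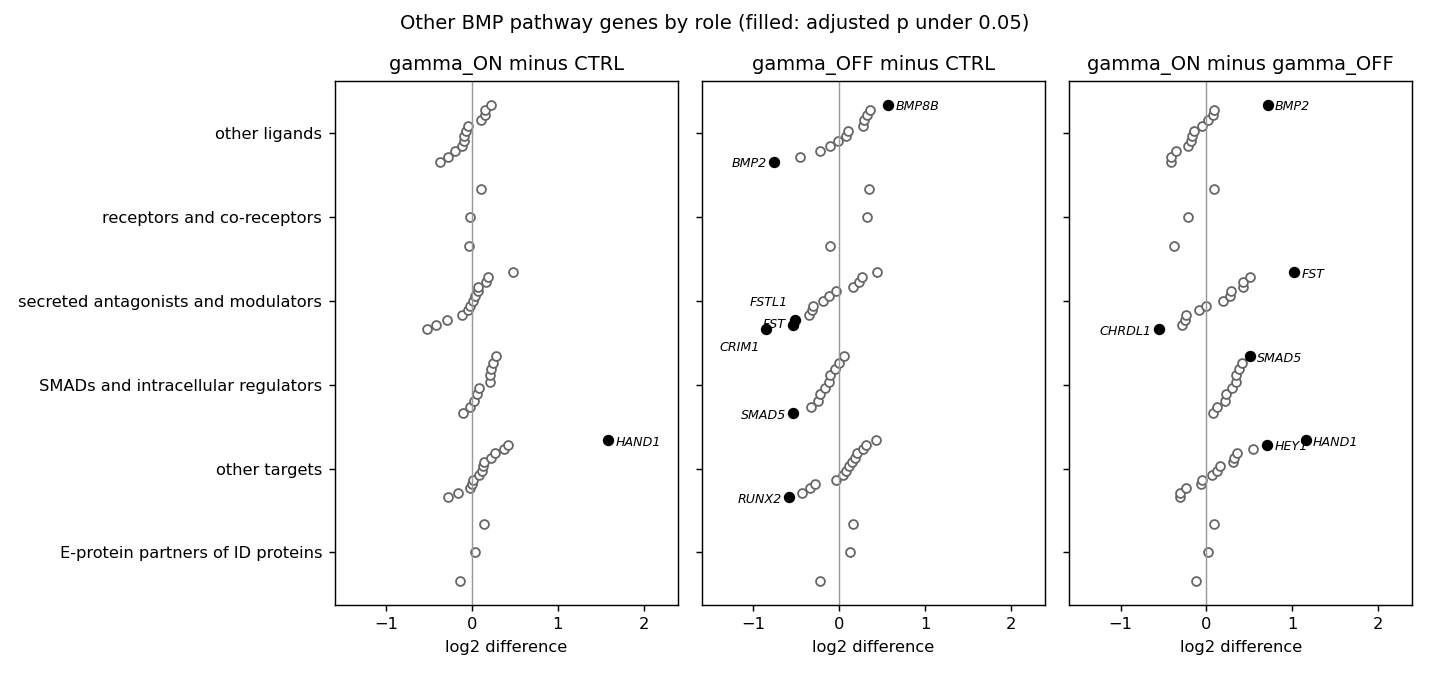
Log2 differences of the 55 further BMP pathway genes by role, for gamma_ON minus CTRL, gamma_OFF minus CTRL and gamma_ON minus gamma_OFF; each point is 1 gene, sorted by value within its role, and filled, named points have an adjusted p under 0.05. HAND1 alone is filled in the first panel, 7 genes in the second and 6 in the third.

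Markers of cell types that could carry these genes were set beside them. Of 11 pluripotency markers 10 were measured, and their mean log2 level was 10.49 and 10.43 in gamma_ON, 10.50 and 10.54 in gamma_OFF, and 10.23 and 10.38 in CTRL. Of these POU5F1 rose in gamma_ON against CTRL by 0.71 (adjusted p = 0.0441) and DNMT3B rose in gamma_OFF by 0.46 (adjusted p = 0.0489). POU5F1 has near-identical pseudogenes, so its value is uncertain. Of 11 trophoblast and amnion markers 6 were measured, with means of 6.46 and 6.56 in gamma_ON, 6.40 and 6.40 in gamma_OFF, and 6.21 and 6.24 in CTRL. In that list 1 gene was called, VTCN1, an amnion and trophoblast membrane protein gene. VTCN1 was 0.60 higher in gamma_ON than in gamma_OFF (adjusted p = 0.0429). That is 16.7% of the 6 in this comparison, beside 5.99% of all genes. Of the 6 log2 differences there 5 were positive and 1 negative, with a median of 0.02. GCM1 was the negative gene, at -0.30 (limma adjusted p = 0.135). Of 10 fibroblast markers 4 were measured, with means of 8.25 and 8.20 in gamma_ON, 7.88 and 7.74 in gamma_OFF, and 8.19 and 8.04 in CTRL. Of these LUM, which encodes lumican, was 1.10 higher in gamma_ON than in gamma_OFF (adjusted p = 0.026), and TAGLN, which encodes a smooth muscle actin-binding protein, fell against CTRL by 0.62 in gamma_ON (adjusted p = 0.0304) and by 0.55 in gamma_OFF (adjusted p = 0.0235). The fibroblast means were lowest in gamma_OFF, but the 4 measured markers differed. In gamma_OFF against CTRL the log2 differences were -0.55 for TAGLN, -0.47 for THY1, -0.24 for LUM and 0.02 for DCN, and only TAGLN passed. The part of these cells in the levels of the BMP pathway genes was not tested.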

How the data were processed

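Total RNA from 6 samples was hybridised to Affymetrix human gene arrays, 1 array per sample, 2 per group. The authors deposited log2 expression values per array row; the submitters' processing notes name RMA and Partek 6.6. The log2 scale was read from the values. For the order of steps, the genome build and the annotation, the sources used here give nothing, and no scanner intensities were used. A platform table named 16098 of 53617 rows with 1 gene each, and all matched RefSeq (GRCh38.p14); 37519 rows stayed unnamed. The brightest row stood for the 779 genes with several.

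Differences were tested two-sided with limma 3.58.1 in R 4.3.3 (lmFit, eBayes) in 1 fit over 6 arrays (3 residual and 6.05 prior degrees of freedom), with Benjamini-Hochberg adjustment over 14884 genes. The script was tested on simulated data. Exact tests were left out because 2 arrays against 2 allow no p under 0.333. Groups and replicates came from the sample descriptions. The number of arrays limits the precision.

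The members and all gene lists were chosen with earlier results of these data known. Text names every member, each called gene of the wider list and up to 2 others per role with large differences, and, for members spanning 1 log2 unit, the 3 nearest profiles. NOG, CHRD, SMAD4, TCF3, TCF4 and TCF12 and the markers named were chosen after their values were seen. Alternatives varied the spread model, array weights, arrays in the fit, a replicate block, dim genes (lowest 25%), row averaging, array scaling, threshold and each array left out.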

Additional observations from a re-analysis of the deposited data

How the results depend on the processing

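Of the 273 refitted values for the 7 genes, 216 kept their direction and their side of the threshold, 46 no longer passed, 6 newly passed and 5 changed sign. For the called genes of the wider list the numbers were 299, 68, 14 and 6 of 387. In gamma_ON against CTRL, 2 of the 7 genes were called in place of 1 with trend and robust fitting, array weights, only the 2 groups compared, dim genes left out or an adjusted p under 0.10. Over all genes the first 4 of these settings called 2.56%, 5.4%, 3.27% and 3.44%, in place of 1.55%. In gamma_OFF against CTRL 5 of the 7 were called with array weights, 4 with only the 2 groups and 5 with scaled arrays, in place of 6, where all genes gave 5.15%, 3.81% and 5.98%, in place of 8.85%. Between the vectors each of these gave 5 in place of 7, where all genes gave 1.54%, 1.85% and 2.98%, in place of 5.99%. In the wider list 2 were called in place of 1 under the same settings except array weights, which gave 3. For gamma_OFF against CTRL the wider count was 3 with array weights, 2 with only the 2 groups compared and 4 with arrays scaled to 1 SD, in place of 7. Between the vectors it was 3 with array weights and 13 at an adjusted p under 0.10, in place of 6. The share of all genes at that looser threshold was not counted, so counts at it cannot be read against all genes. The cause of these shifts was not tested.

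With 1 array left out, the 7 genes gave 0 to 2 calls in gamma_ON against CTRL, 1 to 6 in gamma_OFF against CTRL and 2 to 7 between the vectors, and the wider list gave 1 to 2, 0 to 14 and 0 to 17. Over all genes the same fits called 0.228% to 3.27%, 0.88% to 23.6% and 0.329% to 27.3%. For both comparisons with gamma_OFF the highest share came from the fit without gamma_OFF replicate 1, so a call kept there adds little. Changes of sign occurred only in differences that did not pass. In gamma_ON against CTRL the log2 range was -0.10 to 0.20 for SMAD6, -0.07 to 0.10 for SMAD7, -0.018 to 0.21 for GATA3, -0.24 to 0.14 for BMP2, -0.25 to 0.014 for CHRDL1 and -0.12 to 0.073 for SMAD5. For FSTL1 between the vectors it was -0.13 to 0.12.

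Same-numbered arrays did not deviate together, with correlations of their deviations of -0.0962 for gamma_ON and CTRL, -0.0735 for gamma_OFF and CTRL and 0.0880 for gamma_ON and gamma_OFF, so the numbers were not taken to pair samples. With a replicate block, 1, 5 and 6 of the 7 genes were called in the 3 comparisons, in place of 1, 6 and 7. Of the wider list 1, 7 and 6 were called. Over all genes that fit called 1.41%, 8.36% and 5.85%, in place of 1.55%, 8.85% and 5.99%. The calls lost among the 7 were those of SMAD7, with adjusted p-values of 0.0501 in gamma_OFF against CTRL and 0.0535 between the vectors.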
